A study of Gasterosteus aculeatus with 12 samples.

Results

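Among 12 embryos of a *Gasterosteus aculeatus* cross, 4 embryos, those numbered 4, 5, 9 and 12, were heterozygous at far fewer expressed sites of chromosome I (chrI) than the other 8. The 4 were chosen by their own allele counts. At 7779 chrI sites with more than 12 reads in every embryo, an embryo was taken as heterozygous where the rarer base made up more than 10% of its reads, and embryos with fewer than 3800 heterozygous sites formed the set. The labels put all 12 embryos in 1 group, so the 4 and the 8 are sets defined from these data. The heterozygosity of chrI is therefore described here with no test.

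All 12 were F1 embryos made by in vitro fertilization between LITC, an anadromous population whose fish mostly have 3 dorsal spines, and the High-spine line, which descends from a Boulton by Bodega Bay cross and was selected for spine number. The labels give neither which population was the mother nor the spine counts of the parents. The embryos were raised in 10% seawater at 16 °C and taken whole at 72 hours after fertilization, Swarup stage 19 to 20. Each gave 1 stranded mRNA library from 200 ng of RNA and 12 cycles of PCR. Reads were counted per base at variant sites, and counted reads ran from 16302333 to 27003127 per embryo. Each embryo is 1 library, and whole embryos mix all tissues, so fewer cells of a type and less RNA per cell cannot be told apart.

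A diploid embryo receives 1 copy of each chromosome from each parent, and each of those copies is either one of the parent's own pair or a mosaic of both made by crossing over during meiosis. Outbred parents therefore give up to 4 different copies of a chromosome to a family, and siblings that received different copies are heterozygous at different sites. Where a site lies in a transcript, RNA reads show both bases in a heterozygote, so the copies an embryo holds can be read from its RNA. The same reads show how much of the RNA came from each copy: a difference in *cis*, carried by the copy itself, moves the allele balance within a heterozygote and the total between siblings. In sticklebacks chrI is one of the chromosomes on which an inversion is known to separate marine from freshwater fish, and its place in the present build was not looked up.

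The 4 embryos differed from the other 8 by a wide margin. Embryo 4 had 3223 heterozygous chrI sites, embryo 5 had 3447, embryo 9 had 3233 and embryo 12 had 3172. The other 8 lay between 4110 and 4177, with a median of 4135. The member nearest the limit of 3800 was embryo 5, and the nearest embryo outside it was embryo 10, with 4110. As a share of all sites this was 42.0% ± 1.57 (SD, n = 4) against 53.2% ± 0.25 (SD, n = 8). On the 20 other placed chromosomes the mean difference between the sets, 4 minus 8, lay between -5.29 and 1.90 percentage points, compared with -11.2 points on chrI.

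The 2 sets were not divided by chrXIX class, by pooled heterozygosity of other chromosomes or by read number. Heterozygosity on chrXIX, the sex chromosome of this species, fell into a high and a low class of 6 embryos each. The 4 embryos held 2 of each class and the 8 held 4 of each. Over the placed chromosomes other than chrI and chrXIX together, 49.5% to 54.3% of sites were heterozygous in the 4 and 50.3% to 54.4% in the 8, ranges that overlap. Single chromosomes were less even. Apart from chrI the set means lay furthest apart on chrXII, 44.0% in the 4 and 49.3% in the 8, and on chrVII, 51.3% and 55.4%. Counted reads overlapped too, with 21486137 to 25357062 in the 4.

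The deficit was concentrated in 1 part of the chromosome. In 1 Mb windows, the longest run in which each of the 8 exceeded each of the 4 covered 8 windows, from 7 to 15 Mb (chrI 7000001 to 15000000, build gasAcu1-4), here called the block. Of 1804 block sites, embryo 4 was heterozygous at 32.5%, embryo 5 at 32.4%, embryo 9 at 32.5% and embryo 12 at 28.8%. The other 8 were heterozygous at 63.0% to 64.0%. The contrast was widest between 9 and 10 Mb, where the 4 stood at 18.8% of segregating sites and the 8 at 79.2% to 83.2%. The limits of the run moved with the settings: it measured 10 Mb, from 9 to 19 Mb, when more than 20 reads were asked of every embryo, and 4.5 Mb, from 7 to 11.5 Mb, in 0.5 Mb windows.

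**Figure D1:**
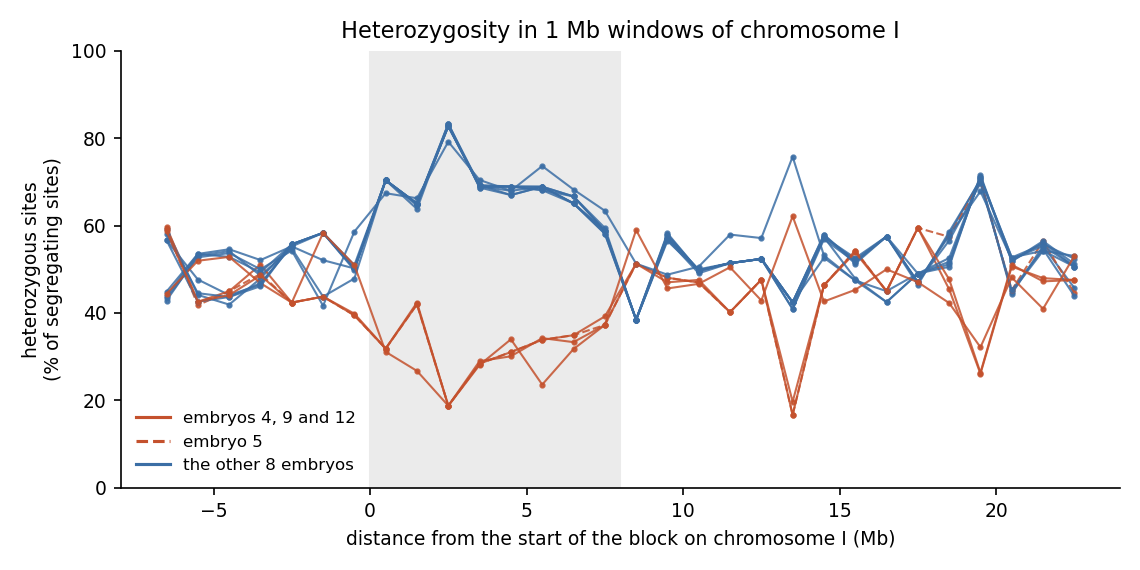
Heterozygous sites as a percentage of the segregating sites in each 1 Mb window of chrI, by distance in Mb from the start of the block (shaded). Each line is 1 embryo, red for embryos 4, 9 and 12, dashed red for embryo 5 and blue for the other 8. Inside the block the 4 lie below the 8 in every window. In the window 19 to 20 Mb past its start, embryo 5 stands with the 8, at 69.9%, while embryos 4, 9 and 12 stand at 26.1% to 32.2%.

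Single sites carried the split in both directions. On chrI, 1308 sites were heterozygous in all 8 and homozygous in all 4, and 615 showed the reverse. Together these 1923 sites set the same 4 embryos against the same 8. On the 20 other placed chromosomes only 3 of 71753 segregating sites had either pattern. Another 9 lay on sequence not placed on a chromosome, of which 8 were heterozygous in the 8 alone. The 4 thus had heterozygous sites of their own in the same region.

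The 5897 segregating chrI sites were next fitted with 2 copies from each parent, allowing each embryo to change copy along the chromosome at a cost. This accounted for 5504 sites, or 93.3%. Of these, 2825 segregated from 1 parent, here called P, 2120 from the other, called Q, and 559 from both. The counts do not tell which of P and Q was the LITC fish. The 4 embryos had received 1 copy from P, called P1, and the other 8 its second copy, P2. From Q, embryos 7 and 12 shared a copy in the block, Q2, while the remaining 10 embryos carried Q1. Embryo 12, the lowest of the 4 in the block, and embryo 7, the highest of the 8, were thus the 2 embryos that held Q2.

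**Figure D2:**
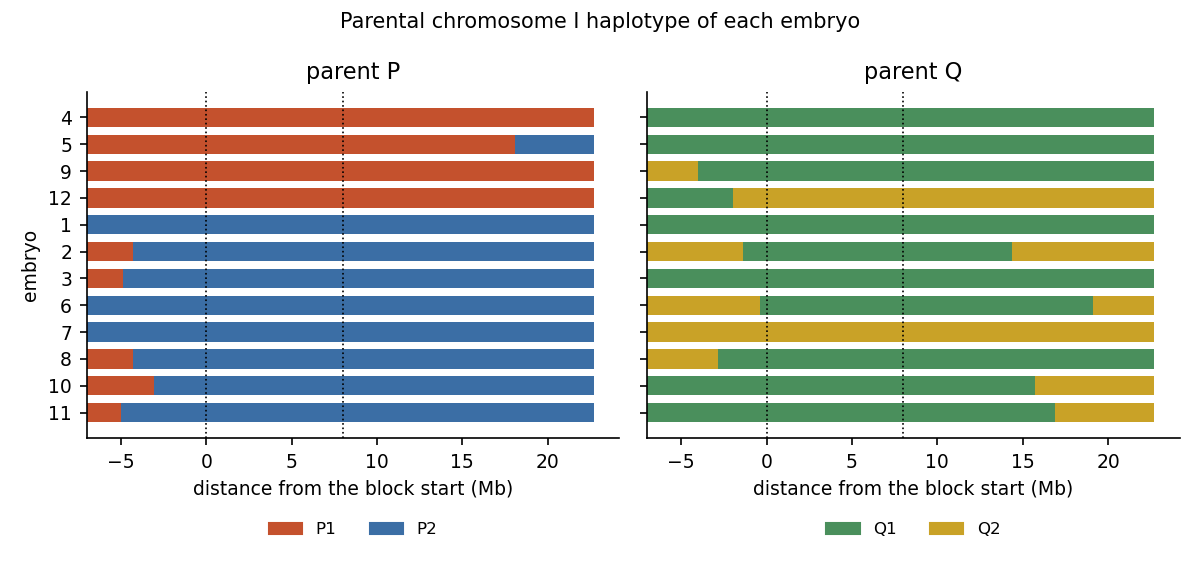
The copy of chrI that each embryo received from parent P (left) and parent Q (right), by distance in Mb from the start of the block, with the block between dotted lines. Colours mark the 2 copies of each parent, and a change of colour is a crossover drawn at the middle of its interval. All 6 crossovers placed for P and all 9 placed for Q lie outside the block.

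The split between P1 and P2 reached well beyond the block. It held from position 3980032 to position 24986001, a stretch of 21.0 Mb. It ended on the left at a crossover in embryo 10, placed between 3906622 and 3980032, and on the right at one in embryo 5, placed between 24986001 and 25128936. Beyond that point embryo 5 carried P2. Its higher count of heterozygous chrI sites accompanied this change: outside the block it was heterozygous at 47.9% of sites, compared with 44.1% to 44.4% in embryos 4, 9 and 12.

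No crossover was placed in the middle of the chromosome. Parent P had 6 in 12 gametes, 1 each in embryos 2, 3, 5, 8, 10 and 11, and none in the other 6. Parent Q had 9, with 2 each in embryos 2 and 6, 1 in 5 embryos and none in the other 5. Of the 15, 10 lay before position 6645276 and 5 after position 21312092. The 14.7 Mb between these points had no crossover in any of the 24 gametes. Intervals ranged in width from 7546 bp, for the one in embryo 6 near 26.1 Mb, to 936385 bp, for those in embryos 2 and 8.

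Once phased, the low heterozygosity of the 4 in the block appears as a likeness between P1 and the copies of the other parent. Both come from the same genotype calls, so the likeness restates the heterozygosity and adds no separate evidence. At 1747 phased block sites, P1 and Q1 differed at 32.5% and P1 and Q2 at 28.7%. These sites include some at which every embryo was homozygous for the same base, which lowers every share. P2 differed from Q1 at 63.1% and from Q2 at 64.7%, and from P1, the other copy of the same parent, at 65.8%. Q1 and Q2 differed at 23.8%. P2 thus stood apart from the 3 other copies, which were closer to each other than any was to P2. Over the whole block, bases that differed from the reference genome made up 36.7% in P2, compared with 40.7% in P1, 34.3% in Q1 and 35.2% in Q2. Such shares leave out sites at which every embryo was heterozygous, 107 of the 1747, since it is not known which parent gave which base there. The order of P1 and P2 changed along the block. Between 9 and 10 Mb the share was 21.2% in P2 and 64.5% in P1, and between 10 and 11 Mb it was 54.0% and 24.7%.

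This asymmetry was weak over the pooled sites of the rest of the 21.0 Mb stretch. At these 2476 sites, P1 differed from Q1 at 44.3% and from Q2 at 46.5%, and P2 differed from them at 49.9% and 49.5%. Single windows varied in both directions. Between 20 and 21 Mb, on 71 sites, P1 differed from Q1 at 18.3% and P2 at 40.8%. Between 24 and 25 Mb the shares were 61.7% and 50.8%. Beyond the stretch, the asymmetry was strong between 26 and 27 Mb, where P1 differed from Q1 at 26.5% and P2 at 63.5%. Between 25 and 26 Mb the shares were 45.3% and 54.7%. At the start of the chromosome, before the stretch, P1 and P2 differed at only 16.3% of 1464 sites. These shares cover listed variant sites in transcripts of whole embryos, including sites at which every embryo was homozygous for the same base. They are not rates per base of the genome.

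**Figure D3:**
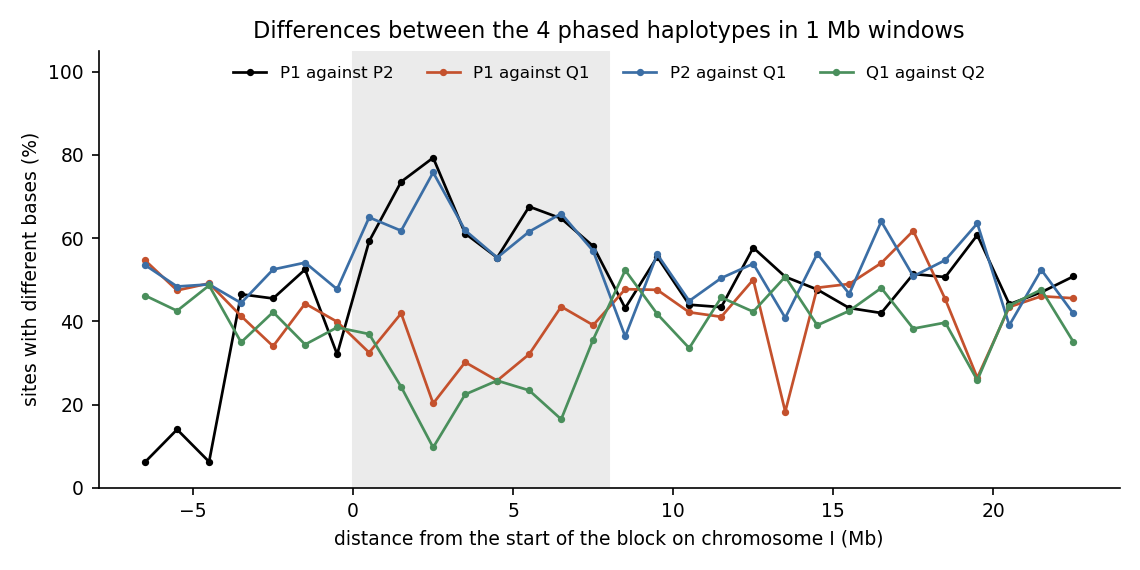
Share of phased sites with different bases, for 4 pairs of parental copies of chrI, in 1 Mb windows by distance from the start of the block (shaded). In the block, P2 against P1 and P2 against Q1 lie above P1 against Q1 and Q1 against Q2 in all 8 windows, and 9 to 10 Mb holds both the highest P1 to P2 share, 79.3%, and the lowest Q1 to Q2 share, 9.7%.

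Whether embryos with P1 and with P2 differed in transcript abundance was examined with the total count, which the choice of embryos did not use apart from the minimum of 12 reads. Counts were summed over the sites of each 10 kb window and 21123 windows were compared between the sets with edgeR's quasi-likelihood test. After Benjamini-Hochberg adjustment over all windows, 1 window passed an adjusted p of 0.05, which is 0.00473% of those tested, and it lay on chrI. It was 1 of 833 windows in the stretch and lay outside the block. None of the 345 block windows passed in edgeR, where 33 had an unadjusted p under 0.05, and DESeq2 called 2 of them. None of 18799 windows on other placed chromosomes passed in edgeR, where 296 had an unadjusted p under 0.05, and DESeq2 called 1.

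Below that threshold the differences were unevenly spread over the genome. An unadjusted p under 0.05 was reached by 9.57% of block windows, 7.38% of windows in the rest of the stretch and 5.60% of windows in the rest of chrI. The share over all windows was 1.98%. On the other placed chromosomes it was 1.57%, and it ranged from 0.69% on chrXIX to 3.69% on chrV. With calibrated p-values, windows without a difference would pass at a rate of 0.05. The other chromosomes lay below that rate and the rest of chrI close to it, so the shares are compared only with each other. Without embryo 4 the shares were 10.95% in the block and 4.63% on the other placed chromosomes. With only the sites at which the sets did not differ in genotype they were 6.72% and 1.38%. Of the 33 block windows, 20 were lower in the 4 and 13 higher. At an unadjusted p under 0.001 there were 19 windows, or 0.0899% of all, of which 10 lay in the stretch and 12 on chrI. The stretch holds 3.94% of the windows tested. Windows in which the 4 and the 8 did not overlap at all made up 2.04% of the stretch, 17 windows, compared with 0.218% of all windows and 0.12% of those on other placed chromosomes. Of these 17, 3 lay in the block, 0.87% of its windows, and 14 in the rest of the stretch, 2.87%.

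**Figure D4:**
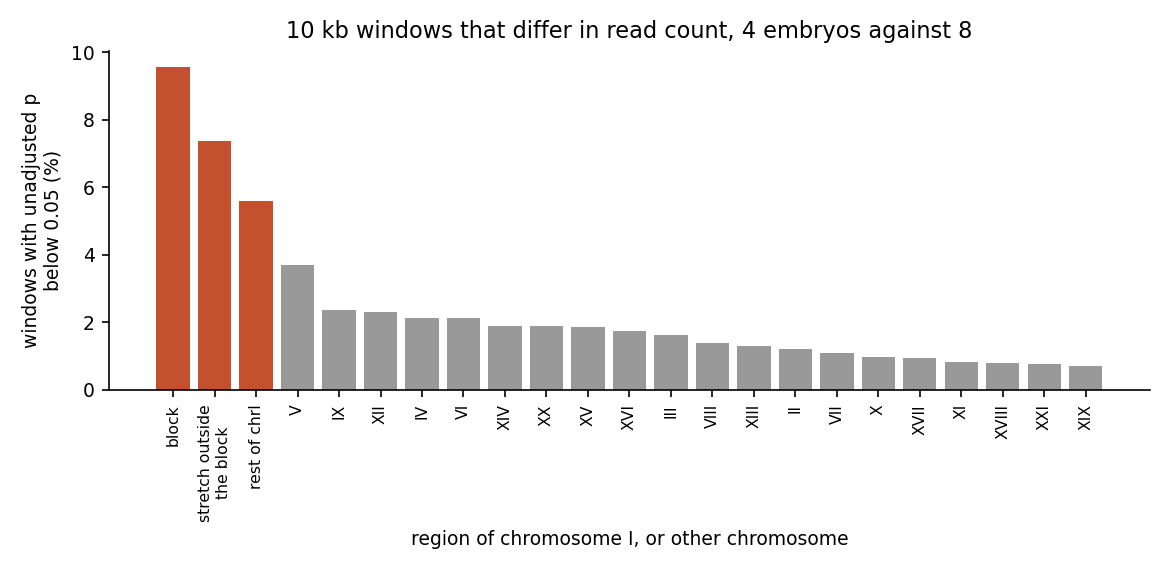
Percentage of 10 kb windows with an unadjusted p below 0.05 in the comparison of the 4 embryos with the 8, for 3 regions of chrI (red) and for each other placed chromosome (grey). The 3 regions of chrI, at 9.57%, 7.38% and 5.60%, stand above each of the other 20, of which chrV is the highest at 3.69%.

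These differences were mostly small, and they did not all run the same way. The median log2 fold change, 4 over 8, was -0.01 in the block and 0.01 over all windows. The median of its absolute value was 0.13 in the block and 0.10 over all windows. Reads in the block made up 1.06% ± 0.05 (SD, n = 4) of counted reads in the 4 and 1.11% ± 0.03 (SD, n = 8) in the 8, with an overlap between 1.06% and 1.12% (two-sided exact permutation test, p = 0.0485). This difference was not stable. It lost the threshold without embryo 2, 3, 5, 6, 7, 8, 9, 10, 11 or 12, with p from 0.0515 to 0.176, and kept it without embryo 1 or 4. With all 12 embryos and only sites at which the sets did not differ in genotype, it also kept it (exact permutation p = 0.0404). The median over block windows, in which abundant transcripts have no extra weight, differed by -0.03 on the log2 scale (exact permutation p = 0.467). No whole chromosome differed in its share of reads, with a lowest adjusted p of 0.764 over 21 exact permutation tests, and chrI made up 6.78% ± 0.20 (SD, n = 4) in the 4 and 6.80% ± 0.23 (SD, n = 8) in the 8.

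Gene names cannot be attached to the windows, since the annotation used here belongs to another assembly, so they are given by position in gasAcu1-4. Whether a site is exonic, intronic or in a UTR is likewise not stated. Levels are in CPM, counts scaled to a library of 1000000 counted reads and adjusted for composition. Besides the window that passed, 9 more are described. They were chosen after their values were seen, as the chrI windows with an unadjusted p under 0.001, at most 1 per 50 kb, and none of the 9 passed after adjustment in edgeR with all 12 embryos and all sites. DESeq2 called 8 of the 9, all but the one at 15370001, with adjusted p from 4.81e-05 to 0.0386.

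The window that passed spans 17870001 to 17880000 on chrI. The 4 embryos with P1 had 10.8 (embryo 4), 7.87 (embryo 5), 12.1 (embryo 9) and 13.8 (embryo 12) CPM. The other 8 ran from 1.10 to 3.76, with a median of 1.87. The sets did not overlap, and the mean was 5.25-fold higher in the 4 by edgeR's fit (log2 fold change 2.39 ± 0.25 SE, adjusted p = 0.00229). The log2 fold change stayed between 2.20 and 2.56 in all 22 alternative fits of this window, and its adjusted p stayed at or under 0.0336.

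Single sites in that window showed which allele was counted. At position 17877794 the reads of the 4 embryos numbered 30, 19, 26 and 27 and those of the other 8 between 2 and 8. In the 4, 95.1% of reads had the alternate base, and in the 8 none of 42 reads had it. At position 17877769 the 4 had 19 to 29 reads, all with the reference base, whereas 94.6% of the 37 reads of the 8 had the alternate base. The 8 embryos had no P1, and the base that filled the reads of the 4 was rare or unseen in them. The extra reads of the 4 were therefore almost all of 1 allele, the one that came with P1. Only 1.63% of reads over the sites of this window in the 4 were of low mapping quality, and none in the 8.

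Embryo 10 carried P1 before its crossover near 3.91 Mb although it carried P2 in the block. Of the 10 windows, 2 lie in the part of chrI where embryo 10 shares P1 with embryos 4, 5, 9 and 12. In the window from 3670001 to 3680000, embryos 4, 5, 9 and 12 had 23.8, 21.3, 25.8 and 21.0 CPM. Embryo 10 had 22.4, and the 7 embryos with P2 there had 35.8 to 43.3. Embryo 10 thus lay among the other carriers of P1 at that place. This is 1 embryo in a window chosen after its values were seen. Without embryo 10, the 4 were lower than the remaining 7 at an adjusted p of 0.0213 in edgeR (log2 fold change -0.77 ± 0.10 SE), compared with 0.601 with it (-0.69 ± 0.15 SE). At the best covered site of the window alone the log2 fold change was only -0.12, with an adjusted p of 0.9998, so the difference came from its other sites.

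The window from 3430001 to 3440000 showed the same arrangement. The 4 had 2.27, 5.64, 2.64 and 2.85 CPM, embryo 10 had 4.12, and the 7 embryos with P2 at that place had 8.35 to 17.7. The 5 carriers of P1 were again below all 7 others. The log2 fold change between the 4 and the 8, -1.65 ± 0.35 SE, was -3.30 at the best covered site alone (edgeR adjusted p = 0.0180) and -0.54 at sites without a genotype difference (adjusted p = 0.9997). Both windows had many reads of low mapping quality, which can fit more than 1 place in the genome. In the first they made up 26.9% of reads in the 4 and 23.7% in the 8, and in the second 89.1% and 70.3%, compared with 6.62% and 6.63% over the other placed chromosomes. The part that such reads played in these differences was not tested.

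**Figure D5:**
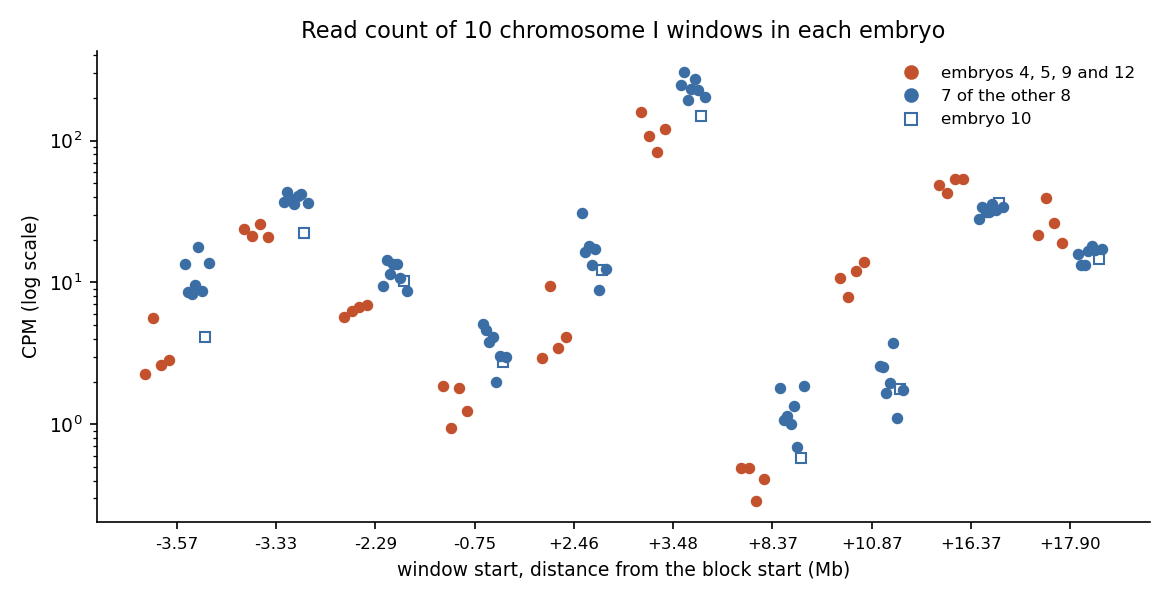
CPM (log axis) in 10 windows of chrI, ordered by distance of the window from the start of the block in Mb. Each point is 1 embryo, red for embryos 4, 5, 9 and 12, blue for the other embryos and an open square for embryo 10. In the first 2 windows, at -3.57 and -3.33 Mb on the axis, embryo 10 carries P1 and lies with the red points, at 4.12 and 22.4 CPM.

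The other 7 windows lay inside the stretch. Between 23370001 and 23380000 the 4 had 48.6, 42.7, 53.4 and 53.6 CPM and the 8 had 28.0 to 36.1, with no overlap (log2 fold change 0.59 ± 0.09 SE, edgeR adjusted p = 0.187). Alleles could be read here in the 4 embryos, in which the base found with P1 alone outnumbered the other base by 1.09 on the log2 scale (edgeR adjusted p = 2.81e-16). An allele ratio of that size would raise the total of the 4 by 0.65 on the log2 scale, beside the 0.59 measured. That value supposes that the P2 copy gave as much RNA as the Q copies, which could not be read in this window. The total included the reads of the sites that gave the ratio, kept by the 10% limit, so the values are not independent. Counted only at sites without a genotype difference, the log2 fold change was 0.65 (edgeR adjusted p = 0.131). The window was also picked for a low p, so the nearness of these values is no separate evidence.

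In the block, the window from 9460001 to 9470000 had 2.95, 9.39, 3.46 and 4.10 CPM in the 4 and 8.92 to 30.7 in the 8, with embryo 5 overlapping embryo 8 (log2 fold change -1.70 ± 0.36 SE, edgeR adjusted p = 0.581). In the 8, the base found with P2 alone stood at 0.18 ± 0.14 SE on the log2 scale against the other base (edgeR adjusted p = 0.351). If the P1 copy gave as much RNA as the Q copies, that ratio would give -0.09, beside the -1.70 measured. The sites of this window did not behave alike. At position 9460691 the 4 had 16, 35, 20 and 15 reads and the 8 had 93 to 206, and every read in all 12 embryos had the reference base. At position 9460970, only a short way along, the 4 had 44 to 136 reads and the 8 had 32 to 90. At that site 97.8% of reads of the 4 had the alternate base, compared with 46.8% in the 8, so the 8 were heterozygous and balanced. Counted at sites without a genotype difference between the sets alone, the window's log2 fold change was -2.79 ± 0.35 SE, with an adjusted p of 0.0183 in edgeR, and at its best covered site -2.85. These values are not separate results. The window has only 4 sites, and the adjacent base 9460692 had nearly the counts of 9460691, 15 to 36 in the 4 and 93 to 214 in the 8. A read that spans both is counted at each.

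The second block window, from 10480001 to 10490000, was the most abundant of the 10. The 4 had 160, 108, 83.0 and 121 CPM and the 8 had 150 to 304, so embryo 4 and embryo 10 overlapped (log2 fold change -0.95 ± 0.19 SE, edgeR adjusted p = 0.530, and 0.00356 in DESeq2). In the 8, the base found with P2 alone was the less abundant by 0.44 on the log2 scale (ratio -0.44 ± 0.07 SE, edgeR adjusted p = 1.32e-05). If the P1 copy gave as much RNA as the shared base, the total of the 4 would be higher by 0.20, whereas it was lower. The P1 copy could not be read against a Q copy in this window, so that condition was not tested. Reads of low mapping quality made up 9.44% in the 4 and 7.76% in the 8, compared with 1.20% and 1.38% over the whole block, and their part was not tested.

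Of the remaining 4, the window at 4710001 to 4720000 had 5.68 to 6.90 CPM in the 4 and 8.72 to 14.3 in the 8 (log2 fold change -0.85 ± 0.16 SE). That at 24900001 to 24910000, just before the crossover of embryo 5, had 19.1 to 39.5 and 13.2 to 18.1 (0.75 ± 0.17 SE), with embryo 5 the highest. There the base found with P2 alone stood at -0.49 on the log2 scale against the other base in the 8 (edgeR adjusted p = 0.0282). If the P1 copy gave as much RNA as the Q copies, that ratio would give 0.22, beside the 0.75 measured. The windows at 6250001 to 6260000 and 15370001 to 15380000 had under 6 CPM in every embryo, with log2 fold changes of -1.27 ± 0.28 and -1.47 ± 0.35 (SE). The sets did not overlap in any of these 4. In all, 7 of the 10 windows were lower in the 4 and 3 higher, and in 6 the 4 did not overlap the 8. All 10 were picked for a low p in this same comparison, so the lack of overlap follows in part from the choice. Over all 21123 windows, 46 had no overlap, or 0.218%.

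The 8 embryos with P2 offered a measurement that needs no comparison between embryos. At the sites heterozygous in all 8 and homozygous in the 4, 1 base came with P2 and the other was shared by P1 and the Q copies. Both were counted in the same library. The 8 held no P1 in the stretch, so their reads of the shared base came from a Q copy. The ratio thus sets P2 against a copy of the other parent, not against P1. In 353 windows of the stretch the P2 base was tested against the shared base with edgeR's quasi-likelihood test, with the embryo as a block, and 104 windows, 29.5%, passed an adjusted p of 0.05. These sites were chosen by the same base counts: a site entered only if the rarer base exceeded 10% in each of the 8, so sites with stronger imbalance were left out and the tests describe the sites that remained. In the block 57 of 167 windows passed. This count was 47 with the best covered site of each window, 35 with DESeq2 and 19 without the embryo as a block. The P2 base was the less abundant in 30 of these 57 and the more abundant in 27, with a median absolute log2 ratio of 0.38. It exceeded 1 on the log2 scale in 3.

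The pooled ratio over the 803 block sites has the same limit, since strongly unbalanced sites were not among them. The P2 base made up 49.2% to 50.5% of reads in the 8 embryos, with a mean log2 ratio of -0.02 ± 0.03 (SD, n = 8) and a ratio below 0 in 5 of 8 (exact permutation of the signs over embryos, two-sided, p = 0.156). Over all 1306 such sites of the stretch the mean was -0.03 ± 0.02, with 7 of 8 below 0 (exact permutation p = 0.0234). The direction depended on which base was the reference. Where the P2 base was the reference, at 334 sites, the mean was 0.10 ± 0.03 and all 8 embryos were above 0. Where it was the alternate, at 469 sites, it was -0.12 ± 0.04 and all 8 were below 0. Both had an exact permutation p of 0.00781, the smallest that 8 embryos allow. A lean of about 0.1 towards the reference base was thus present whichever copy carried it, and ratios of that size in single windows are within it.

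Of the 57 windows, 30 leaned the same way in all 8 embryos, 19 towards the shared base and 11 towards P2. The 10 of these 30 with the largest ratios, at most 1 per 50 kb, had absolute log2 ratios from 0.44 to 1.34. The best covered of them spans 9880001 to 9890000, with 21 sites, at all of which the P2 base was the reference. P2 made up 55.7% to 61.6% of its reads, with a median of 60.4% (log2 ratio 0.55 ± 0.04 SE, adjusted p = 3.84e-12 in edgeR). The totals ran the same way, with 61.2 to 91.3 CPM in the 4 and 83.8 to 141 in the 8 (log2 fold change -0.46 ± 0.14 SE, unadjusted p = 0.00616). If the P1 copy gave as much RNA as the shared base, the ratio would give -0.30. Read in the 4, the P1 base stood at -0.32 on the log2 scale against the base of P2 and the Q copies. It did not pass (edgeR adjusted p = 0.357). At the best covered of its 21 sites alone the allele ratio was 0.16 and did not pass (edgeR adjusted p = 0.136).

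Among the 10, the largest ratio towards the shared base in a window with more than 1 site was at 10050001 to 10060000. There P2 made up 32.8% to 38.6% of reads at 9 sites, all with the P2 base as the alternate (log2 ratio -0.85 ± 0.05 SE, edgeR adjusted p = 7.04e-15). At the best covered of these sites alone the ratio was -0.06 (adjusted p = 0.639), so the lean was carried by the others. The totals did not differ beyond their spread, with a log2 fold change of 0.04 ± 0.19 SE. The ratio would give 0.36 if the P1 copy gave as much RNA as the shared base, which was not tested in this window. The window at 10490001 to 10500000 had the largest ratio of the 10, -1.34 ± 0.20 SE, on 1 site with 67 P2 reads and 171 shared reads. Its total was higher in the 4 by 0.54 ± 0.29 SE on the log2 scale, beside 0.52 from the ratio on the same condition. The 4 ran from 10.9 to 41.8 CPM, with a mean of 20.2 ± 14.5 (SD). The other embryos ran from 10.9 to 17.9, with a mean of 13.8 ± 2.65 (SD). The highest of the 4 thus stood far above their mean, and the nearness of 0.54 to 0.52 depends on it. The total without that embryo was not tested in this window. The sets overlapped, and the unadjusted p in edgeR was 0.0824.

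At 12790001 to 12800000 both copies of parent P gave more RNA than the shared base. P2 made up 62.3% to 69.9% of reads in the 8 (log2 ratio 0.91 ± 0.06 SE, adjusted p = 1.64e-13 in edgeR), and the base found with P1 alone outnumbered the shared base in the 4 by 1.40 on the log2 scale (adjusted p = 5.43e-16). Its best covered site gave a like ratio for P2, 0.87. The totals were 37.9 to 47.2 CPM in the 4 and 28.5 to 43.9 in the 8, which overlap (log2 fold change 0.18 ± 0.11 SE). For the window at 9060001 to 9070000 both log2 ratios were likewise above 0, 0.51 for P2 and 0.39 for P1, with edgeR adjusted p of 3.33e-09 and 0.00275. The P2 ratio was 0.06 at the best covered of its 4 sites (adjusted p = 0.602), and without the embryo as a block its adjusted p was 0.116. The 5 other windows had ratios between -0.50 and 0.48.

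The reverse reading, in the 4 embryos at sites heterozygous in them alone, tested the P1 base in 282 windows of the stretch, with sites chosen by the same limit of 10% and so without the most unbalanced ones. Of these 54 passed, 19.1%, and 14 of 102 did so in the block. The P1 base was the less abundant in 32 of the 54 and the more abundant in 22. It was set against the base of P2 and the Q copies, read here from a Q copy. This reading rests on 4 embryos and 615 sites, and the one in the 8 on 8 embryos and 1306 sites. The shares are therefore not set against each other.

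Across windows, allele ratios and totals were loosely related. The log2 fold change of the total was compared with the value that the allele ratio in the 8 would give if the P1 copy gave as much RNA as the shared base. Over 353 windows Pearson's r was 0.19 and Spearman's rho 0.28. Over the 104 windows that passed in the allele test they were 0.27 and 0.46. With the P1 ratios of the 4 embryos added where they could be read, r was 0.34 and rho 0.40 over the 353 windows. In these comparisons the totals included the reads of the sites that gave the allele ratios, so the values compared were not independent. When the totals came only from sites at which the sets did not differ in genotype, r was 0.08 and rho 0.12 over 315 windows. These are descriptions across windows, which share the same 12 libraries, and neighbouring windows can belong to 1 transcript.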

How the data were processed

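Whole F1 embryos were sequenced, 1 library each. Per the labels and the study's methods, the authors trimmed reads (cutadapt 2.4 through Trim Galore), aligned them to gasAcu1-4 with STAR in 2 passes, used Picard 2.23.4 and SAMtools 1.10, and called variants and counted reads per base with GATK 4.1.4.1. The deposited values are raw counts of reference, alternate and total reads per variant site and embryo, not normalized. Reads spanning neighbouring sites are counted at each, and nothing corrects for easier alignment of the reference base.

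The embryos and windows described, and the tests, were chosen with earlier results of these data known. Genotypes came from the 116469 sites covered by over 12 reads in every embryo, out of 321670 listed for every embryo. Copies of chrI were fitted with a cost of 4 unexplained sites per crossover. Window totals were summed over sites listed in all 12 embryos, filtered with filterByExpr at a minimum count of 10, scaled by TMM and tested with edgeR 4.0.16 in R 4.3.3 on all 12 embryos, the 4 against the 8. Alleles were tested with the embryo as a block, at sites kept by the 10% limit on the rarer base, which truncates the ratios. DESeq2 1.42.0 was an alternative. Shares and pooled ratios were tested by exact permutation in Python 3.11.15 with scipy 1.17.1, over 495 arrangements of 4 among 12. Tested on simulated data, the totals test on 19191 windows recovered 154 of 200 changed by 1 on the log2 scale, with 5 false calls, and the allele test on 353 windows recovered 58 of 59, with 2. The simulated totals left out windows with few reads and gave all windows the same dispersion. The simulated alleles had no 10% limit and no lean towards the reference base. Recovery in the real data can therefore be lower. The windows named were, by a fixed rule, those past the threshold with the largest changes, at most 1 per 50 kb (for alleles, the 10 largest in the block with 1 direction in all 8 embryos). The 9 others were added after their values were seen. The biological coefficient of variation was 0.24. P-values measure the spread between single embryos of 1 group.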

Additional observations from a re-analysis of the deposited data

Results flagged for a closer look

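There were 28 sets of values, 4 and 8 embryos each for 14 measures. In 4 of these sets an embryo lay far from the rest by Dixon's test at the 95% level. The nominal rate of such flags is 1 in 20. That rate does not apply as it stands, since the heterozygous counts come from the calls that formed the sets. The 2 windows flagged below were also picked for a low p in this comparison. Embryo 12 had 520 heterozygous block sites, while the other 3 with P1 had 584 to 587. Embryo 7 had 1155, while the other 7 with P2 had 1136 to 1138. These 2 embryos are the carriers of Q2 in the block, which restates the same genotype calls. Embryo 10 had 22.4 CPM in the window from 3670001 to 3680000 on chrI, below the 35.8 to 43.3 of the rest of its set, and it is the embryo of that set that carried P1 there. Embryo 1 had 30.7 CPM in the window from 9460001 to 9470000, above the 8.92 to 18.1 of the other 7.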

How the results depend on the processing

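The difference in chrI heterozygosity between the sets moved by less than 1 SD of the 4 under each alternative run. The block measured 10 Mb with more than 20 reads per embryo and 4.5 Mb in 0.5 Mb windows, against 8 Mb. Called windows numbered 14 in the genome and 2 in the block with DESeq2, 3 and 1 with 1 site per window, and 2 and 1 with sites lacking a genotype difference, against 1 and 0. The genome count was also 2 with sites listed in at least 1 embryo, and 1 to 3 on leaving out single embryos, the highest without embryo 10. No block window was called without any single embryo. Block windows with an unadjusted p under 0.05, 33 in the edgeR fit, numbered 21 with 1 site per window, 18 with sites lacking a genotype difference, 14 in 50 kb windows, which are fewer, and 23 to 38 without single embryos. Without embryo 4, 4.63% of windows on other placed chromosomes had an unadjusted p under 0.05, against 1.57%. With 2 principal components of the other chromosomes as covariates, an alternative chosen after seeing the data, 13.0% of block windows and 2.44% of windows on other placed chromosomes had an unadjusted p under 0.05.

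The log2 ratio of block shares, -0.07 (exact permutation p = 0.0485), was -0.028 as a median over windows (p = 0.467), -0.032 over the whole stretch (p = 0.0828, chosen after seeing the data) and -0.103 to -0.046 without single embryos. With sites lacking a genotype difference the ratio was -0.072 (exact permutation p = 0.0404). Block windows past the allele threshold, 57 of 167, numbered 19 without the replicate block and 35 with DESeq2. There were 47 with the best covered site of each window and 48 to 56 without single embryos. With only sites where the P2 base was the reference, fewer windows could be tested, and 25 of 83 passed. With only sites where it was the alternate, 39 of 127 passed. The pooled block ratio was 0.10 at sites with the P2 base as reference and -0.12 at the others, and -0.02 to -0.01 without single embryos. Pearson's r of totals against alleles, 0.19, was 0.076 with sites lacking a genotype difference and 0.34 with the P1 ratios added, a setting chosen after seeing the data. All 349 recomputed values of named windows kept their direction, but not their size: with the best covered site alone, the allele ratios at 9.06, 9.88 and 10.05 Mb fell from 0.51, 0.55 and -0.85 to 0.06, 0.16 and -0.06, and the total at 3.67 Mb from -0.69 to -0.12. Leaving out embryos with a crossover inside the block could not be run, because the fit placed none there. Depth limits the weakest windows, which had few reads per embryo. The causes of these changes were not tested.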
